A study of Drosophila melanogaster with 2 samples.

Results

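The 10 genes described here are the muscle regulator *Mef2* and 9 genes of the muscle sarcomere, namely *Mhc*, *sls*, *bt*, *up*, *wupA*, *Act88F*, *Tm1*, *Zasp52* and *Strn-Mlck*. They were chosen by symbol, for their role in muscle, among 13945 protein-coding genes on the 6 major chromosome arms of *Drosophila melanogaster*. The choice was made with earlier results of these data known, and its rule used no binding value. The data are ChIP-seq peak lists for Capicua, obtained with an antibody against GFP from whole adults, males and females together, of 1 transgenic line that stably carries cic with GFP at its C terminus; the age of the flies is not known. There is 1 group with 2 libraries, labelled as biological replicates 1 and 3, so the lists describe where peaks lay and allow no comparison between conditions. Nothing in the labels says whether both came from separately raised flies, so any difference between the libraries may reflect handling as well as the animals.

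Capicua is a transcriptional repressor with an HMG-box DNA-binding domain, and signalling through receptor tyrosine kinases relieves its repression. It is known for recognising the octamers TGAATGAA and TGAATGGA. MEF2 is a MADS-box activator that muscle precursors need in order to differentiate. The sarcomere genes encode the interdigitating myosin and actin filaments, the Z disc that anchors the actin filaments, the elastic titin-like proteins that link Z disc and myosin, and the kinases and troponins that act on them.

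Capicua-GFP peaks were found at 4 of the 10 genes, at *Mef2*, *Zasp52*, *Tm1* and *Strn-Mlck*, and at none of the others in the list that passed the authors' threshold on reproducibility. A gene was counted when a summit lay in its body or within 1000 bp of one of its transcript starts, and 32.8% of all protein-coding genes met this. In each of the 4 genes at least 1 summit was a promoter summit, one within that distance of a start, which 30.5% of all genes had. The myosin heavy chain, both titin-like proteins, troponin T, troponin I and the flight muscle actin had no summit. The flies were taken whole, so a site bound in few cells and a site bound weakly in many cells cannot be told apart.

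The 4 genes held 15 summits, and their peak scores ran from 117.27 to 611.05 with a median of 185.34. The peak score is the authors' measure of peak strength; it has no unit and serves here to rank peaks within a list. Over the 7152 thresholded summits it ran from 115.84 to 3067.16 with a median of 179.58, so 8 of the 15 lay above the median of the list. In the pooled relaxed list, which holds 30000 entries and reaches down to a score of 30.67, 8 of the 10 genes had a peak, against 69.3% of all genes.

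**Figure D1:**
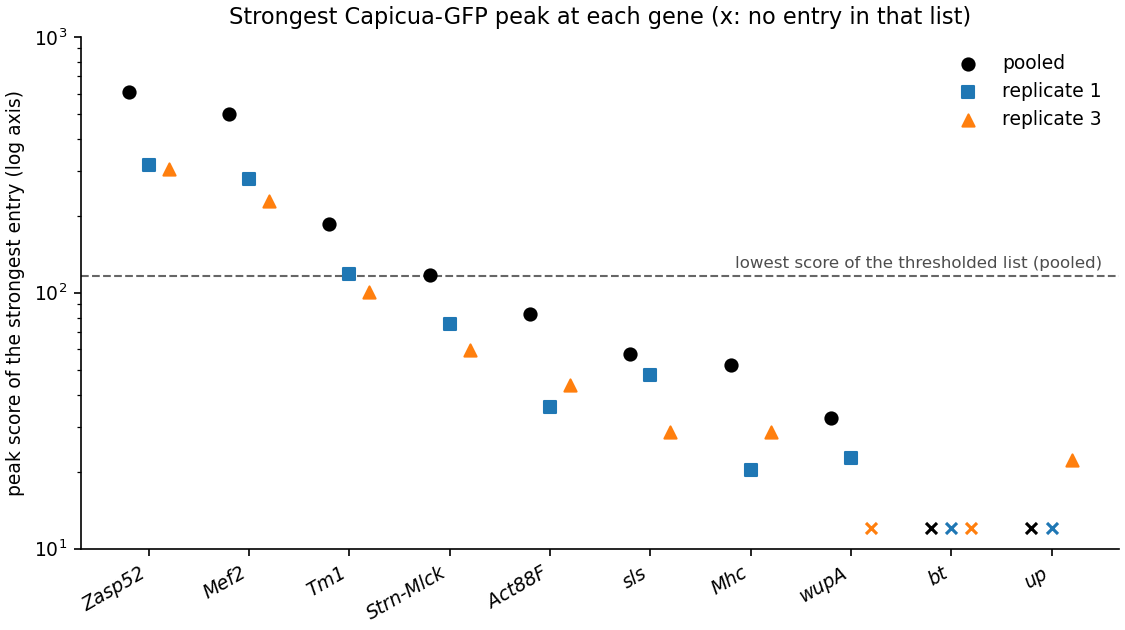
Peak score (log axis) of the strongest entry at each gene in the pooled relaxed list and in the relaxed list of each replicate; a cross marks a list with no entry, and the dashed line is the lowest score of the thresholded list, which applies to the pooled scores only. *Zasp52* and *Mef2* stand highest in all 3 lists, *Strn-Mlck* lies just above the line, and *bt* has no entry in any list.

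*Mef2* (FBgn0011656; dm6, arm 2R, 9913496 to 9958858, minus strand, 45.4 kb, 3 starts) held 8 of the 15 summits. The strongest, at position 9958591, had a pooled score of 498.19 and ranked 427 in the list. It lay in the 5′ UTR, 267 bp downstream of the start of the transcripts Mef2-RF and Mef2-RH. The peak matched to it scored 277.22 in replicate 1 and 228.84 in replicate 3, a mean of 253.03 ± 34.21 (SD, n = 2). A second summit of the same 862 bp interval lay 63 bp downstream of the same start with a score of 305.24. The replicate summits nearest to it scored 163.22 in replicate 1 and 151.75 in replicate 3.

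The start that 8 of the 11 *Mef2* transcripts share, Mef2-RA among them, had a weaker summit, which scored 197.63 and lay 186 bp upstream. Its matched peaks scored 76.52 in replicate 1 and 122.57 in replicate 3, a ratio of 0.624, the lowest among the 15 summits. The remaining start, that of Mef2-RG, had no thresholded summit within 1000 bp, and its strongest pooled relaxed peak there scored 32.73. The other 5 *Mef2* summits were intronic. They included one of 314.71 at 3401 bp from the first start, with 197.15 in replicate 1 and 127.21 in replicate 3, and one of 202.75 at 2685 bp downstream of the Mef2-RA start, with 104.49 and 97.08.

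The other 3 intronic summits of *Mef2* were weaker. A pair at 4698 and 4476 bp upstream of the Mef2-RG start scored 160.48 and 149.84. The last, with a score of 126.76, lay beside the summit of 314.71; the replicate summits nearest to it, 40 and 55 bp away, scored 59.02 in replicate 1 and 85.56 in replicate 3. Just under the threshold, *Mef2* had relaxed peaks of 109.89 in its 3′ UTR, nearer to the start of *Etf-QO*, and 106.23 at 386 bp upstream of the Mef2-RA start.

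*Zasp52* encodes a PDZ and LIM domain protein of the Z disc. The gene (FBgn0265991; 2R, 15762565 to 15817004, minus strand, 54.4 kb, 3 starts) held 4 summits, and its strongest was the highest of the 15. That summit, at position 15813442, scored 611.05 and ranked 262; the matched peaks scored 315.88 in replicate 1 and 304.61 in replicate 3, a mean of 310.24 ± 7.97 (SD, n = 2). It was intronic, 1475 bp downstream of the start that Zasp52-RAA and most annotated transcripts use. An octamer TGAATGAA lay on the minus strand at 15813422 to 15813429, with its centre 17 bp from the summit.

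The promoter summit of *Zasp52* scored 267.62 and lay 223 bp upstream of the start of Zasp52-RC and Zasp52-RZ. Its matched peaks scored 151.23 in replicate 1 and 121.58 in replicate 3. The other 2 summits, in introns 2568 and 6018 bp downstream of the Zasp52-RAA start, scored 139.85 and 133.97. The former was the least even of the 15 between replicates, with 105.17 in replicate 1 and 39.47 in replicate 3. All 4 summits also lie within the annotated span of another gene, *tun*, although the nearest start was that of *Zasp52* in each case. Relaxed peaks of 106.32 and 77.67 lay within 1000 bp of the other *Zasp52* starts. The latter lay at the most downstream start, that of Zasp52-RQ and Zasp52-RY.

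*Strn-Mlck*, which encodes stretchin and myosin light chain kinase isoforms, was the borderline case. The gene (FBgn0265045; 2R, 15946933 to 15989498, minus strand, 42.6 kb) had 1 summit with a score of 117.27, rank 7008 of 7152. The lowest score in the list was 115.84 and the highest pooled score outside it was 115.82. The summit lay 158 bp upstream of the start of Strn-Mlck-RM and Strn-Mlck-RN, in an intron of the longer transcripts. It also lay within 1000 bp of the start of Strn-Mlck-RB. Its matched peaks scored 75.77 in replicate 1 and 59.48 in replicate 3, a mean of 67.63 ± 11.52 (SD, n = 2). The summit of the latter lay 191 bp away, and the replicate 3 summit nearest to it, at 34 bp, scored 42.74. The matched peaks ranked 4969 in the list of replicate 1 and 7597 in that of replicate 3, so only the former lies within the highest 7152 entries of its list, and with replicate 3 alone 3 of the 10 genes had a summit. None of the other relaxed peaks of the gene exceeded 57.74.

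The summits lay at some starts of the 4 genes and not at others. The 10 genes have 40 annotated transcript starts, counting each position once; 7 had a thresholded summit within 1000 bp, against 31.9% of the 19607 starts of all protein-coding genes, and 22 had a pooled relaxed peak there, against 69.3%. Starts a few bases apart share a summit, as the last pair of *Tm1* starts does. Of the 15 summits, 6 were promoter summits and 9 were intronic and further away. The promoter share of 40.0% compares with 64.7% of all thresholded summits within 1000 bp of the start of any protein-coding gene. The 15 summits belong to genes of 30.6 to 54.4 kb, and no share was taken for genes of like length.

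**Figure D2:**
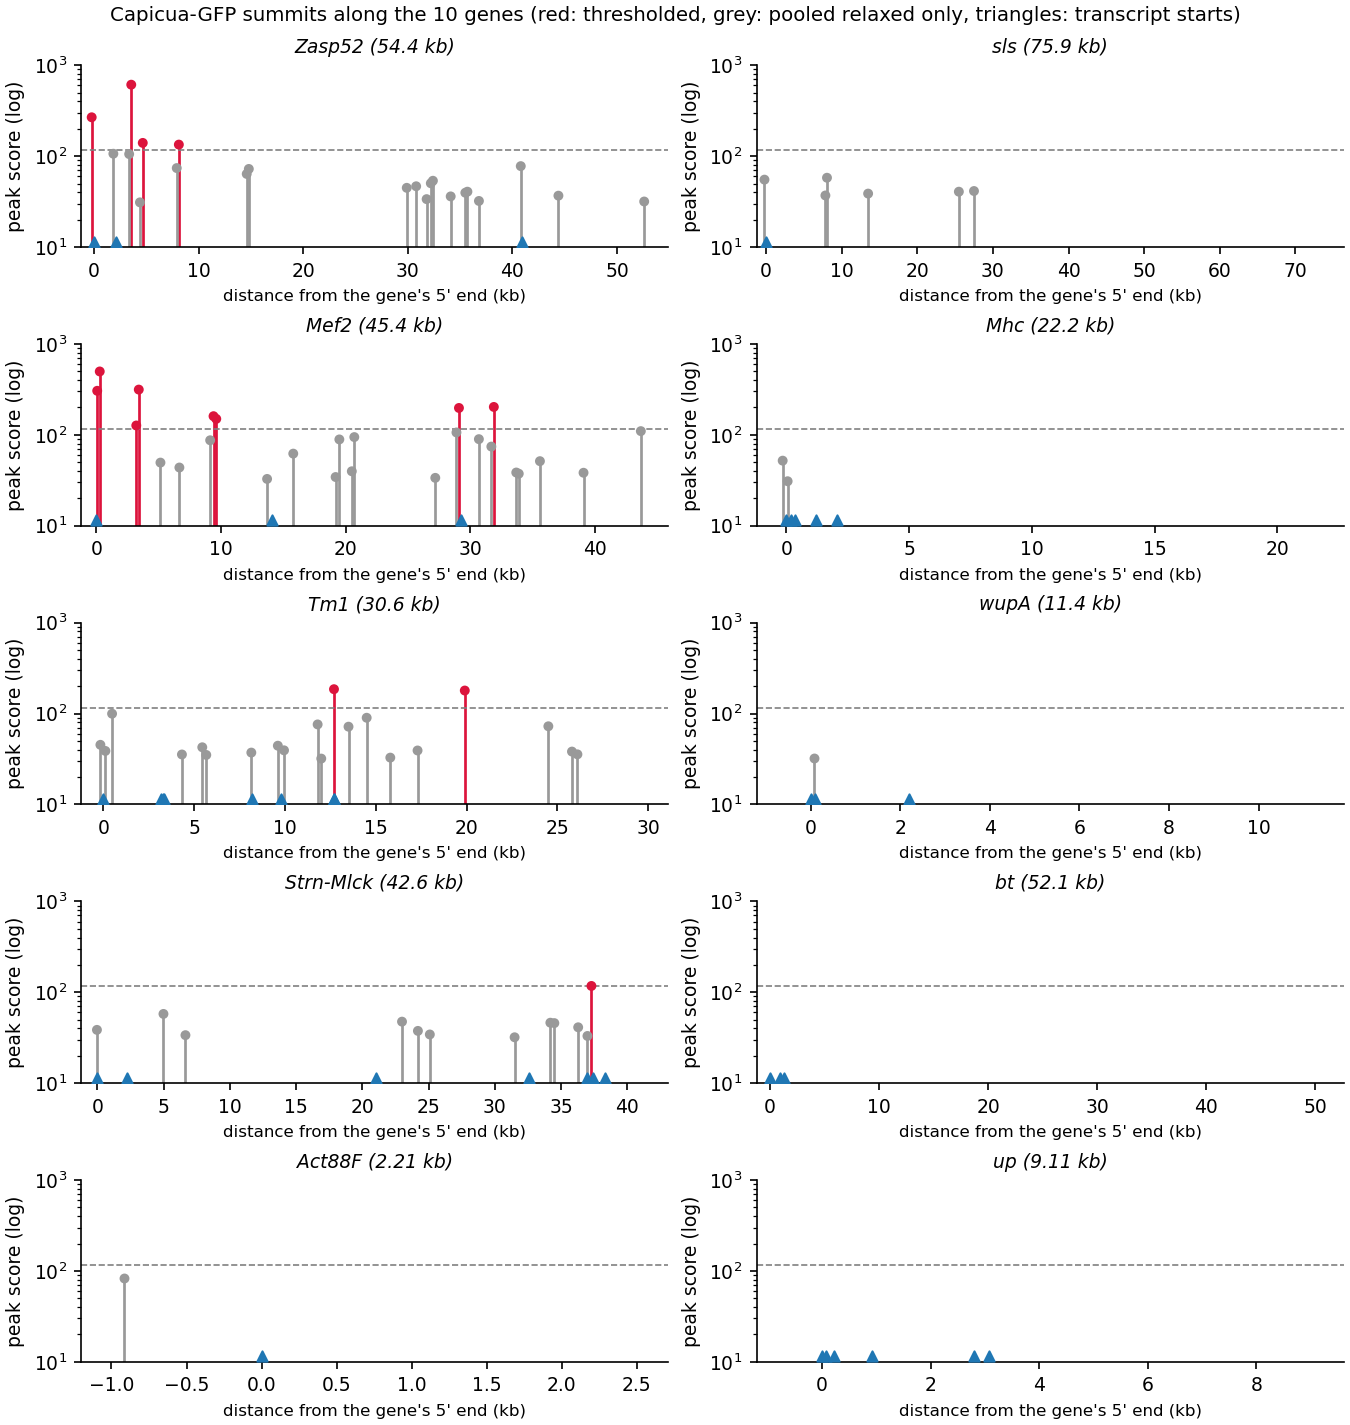
Score (log axis) of each pooled relaxed peak against its distance from the gene's 5′ end in kb, with thresholded summits in red, other pooled relaxed peaks in grey, transcript starts as triangles and the lowest thresholded score as a dashed line. *Mef2*, *Zasp52* and *Tm1* carry peaks along much of their length, and *bt* and *up* carry none.

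*Tm1* encodes tropomyosin, which lies along the actin filament and with the troponins controls access of myosin to it. It was the only member of the thin filament group with a thresholded summit. The gene (FBgn0003721; 3R, 15278220 to 15308779, plus strand, 30.6 kb, 8 starts) had 2 summits of like strength. The first scored 185.34, rank 3374, and lay 71 bp upstream of the start of Tm1-RA. Its matched peaks scored 118.00 in replicate 1 and 67.86 in replicate 3, a mean of 92.93 ± 35.45 (SD, n = 2). The start of another gene, *CG45218*, was about as near: the matched summit of replicate 1 lay 72 bp from it and 73 bp from that of Tm1-RA. The second scored 179.14, rank 3585, in an intron 7169 bp downstream of the last start, with 84.89 in replicate 1 and 100.30 in replicate 3. The replicates thus ranked the pair in opposite orders.

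The 61 bases centred on each *Tm1* summit are shown on the gene's strand because these are the strongest sites among the thin filament genes and differ in base composition. The first window is chr3R:15290843-15290903 and has 65.6% G and C; the second is chr3R:15298085-15298145 and has 41.0%.
*Tm1* promoter summit: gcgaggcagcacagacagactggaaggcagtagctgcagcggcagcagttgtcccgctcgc
*Tm1* intron summit: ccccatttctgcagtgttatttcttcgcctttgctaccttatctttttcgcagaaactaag
Neither window of 201 bases around these summits held a Capicua octamer. The promoter summit had a CACACACA repeat 50 bp away, at chr3R:15290820-15290827, shown in capitals in its context.
*Tm1* promoter repeat: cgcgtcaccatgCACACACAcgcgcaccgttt

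Of the other 6 *Tm1* starts, 4 had a pooled relaxed peak within 1000 bp and none a thresholded summit. The start of Tm1-RT had a relaxed peak of 99.57 at 485 bp downstream, ranked 8703, although the start of another gene, *l(3)neo43*, was nearer to it at 37 bp, and the start of Tm1-RH one of 37.19. The start that serves Tm1-RE and 6 other transcripts had a relaxed peak of 35.45. Replicate 1 had an entry of 20.91 at that peak, and replicate 3 had none there. That weak peak lay 35 bp from a match to the MEF2 site, the A and T rich sequence that MEF2 is known to bind, at chr3R:15282509-15282518. It is printed with the match in capitals, as the MEF2 site nearest to a *Tm1* summit in these lists.
*Tm1* MEF2 site: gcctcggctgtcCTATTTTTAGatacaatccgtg

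*Act88F*, the actin gene of the indirect flight muscles, came closest to the threshold among the genes without a summit. It is a short gene (FBgn0000047; 3R, 15439969 to 15442177, plus strand, 2.21 kb) with 1 start. Its only relaxed peak lay 917 bp upstream of that start and scored 82.64, rank 10812. It was present in both replicates, at 35.65 in replicate 1 and 43.58 in replicate 3. The nearest thresholded summit lay 6412 bp from the start, with a score of 122.21 and no other gene's start nearer to it. None of the motifs that were sought lay within 100 bp of the relaxed summit, and the 61 bases around it, chr3R:15439022-15439082, are shown for the peak itself.
*Act88F* upstream peak: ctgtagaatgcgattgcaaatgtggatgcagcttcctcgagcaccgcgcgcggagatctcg

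The troponin genes on the X chromosome had few and low entries in these lists. *wupA*, which encodes troponin I (FBgn0283471; 18105568 to 18116922, minus strand, 11.4 kb), had 1 pooled relaxed peak of 32.27, rank 28349, at 14 bp upstream of a start. Replicate 1 had 2 entries at the gene, 19.47 at that peak and 22.57 at 884 bp downstream of the same start. Replicate 3 had none. *up*, which encodes troponin T (FBgn0004169; 13593474 to 13602578, minus strand, 9.11 kb), had no pooled entry and none in replicate 1, and 1 of 22.21 in replicate 3. The nearest thresholded summit to *up* lay 22328 bp outside the gene, nearest to the start of *NFAT*. On the X chromosome 26.5% of genes had a thresholded summit.

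*Mhc* encodes the muscle myosin heavy chain, the motor of the thick filament. The gene (FBgn0264695; 2L, 16766566 to 16788766, plus strand, 22.2 kb, 5 starts) had 2 pooled relaxed peaks, both beside its first starts. The stronger scored 52.00, rank 17282, and lay 153 bp upstream of the Mhc-RK start. The strongest replicate entries near these starts scored 20.22 in replicate 1, at 20 bp downstream of the Mhc-RK start, and 28.62 in replicate 3, at 239 bp upstream, where the lowest scores of those lists were 17.46 and 17.51. The window at this summit, chr2L:16766383-16766443, is shown because it holds a GAGAGAG match 11 bp from the summit, in capitals.
*Mhc* promoter peak: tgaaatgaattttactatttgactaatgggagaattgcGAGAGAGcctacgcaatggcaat

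*sls* encodes Sallimus, a titin-like protein that links the Z disc to the thick filament. It is the longest of the 10 genes (FBgn0086906; 3L, 2039681 to 2115611, minus strand, 75.9 kb) and had 6 pooled relaxed peaks, all within 27.5 kb of its 5′ end. The strongest, of 57.86, was intronic at 8060 bp from the start. Replicate 1 had an entry of 47.86 beside it, and replicate 3 had none there. The peak at the *sls* start scored 55.15 at 208 bp upstream, with a replicate 1 entry of 40.59 at 216 bp upstream and a replicate 3 entry of 28.57 at 335 bp downstream. A weaker intronic peak of 36.93 had an entry of 32.28 in replicate 1 and none in replicate 3. That peak had a match to the MEF2 site 29 bp from its summit, at chr3L:2107785-2107794, in capitals here.
*sls* MEF2 site: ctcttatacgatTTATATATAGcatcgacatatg

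*bt* encodes projectin, the other titin-like protein (FBgn0005666; chromosome 4, 724400 to 776474, plus strand, 52.1 kb). It had no entry in the pooled list or in either replicate list. The nearest pooled peak lay 793 bp outside the gene with a score of 39.88 and was nearest to the start of *MED26*; the nearest thresholded summit lay 29075 bp away, nearest to the start of *myo*. Of the 80 protein-coding genes on chromosome 4, 25.0% had a thresholded summit, against 32.8% of all protein-coding genes. A pooled relaxed peak was present at 82.5% of them, against 69.3% of all. Of the 13 genes of 20 kb or longer on this chromosome, 4 had a thresholded summit, against 50.8% of all genes of that length.

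Nearly all Capicua octamers lay away from the summits, in the 10 genes as in protein-coding gene bodies at large. The 10 gene bodies, 346.0 kb in all, held 40 octamers, 27 of them intronic, which is 1.16 per 10 kb, against 1.31 per 10 kb over all protein-coding gene bodies. Of the 40, 1 had its centre within 100 bp of a thresholded summit, the one at the strongest *Zasp52* summit. That is 2.50% of the octamers, while 0.803% of the bases of the 10 genes lie within 100 bp of a thresholded summit. Over all gene bodies the corresponding values were 2.75% of 11762 octamers and 1.20% of bases.

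*bt* and *Zasp52* held 8 octamers each, more than any other of the 10 genes, and *bt* had no entry in any list. Per 10 kb *bt* held 1.54 and *Zasp52* 1.47, against 1.31 over all protein-coding gene bodies. The highest density of the 10 genes was that of *Mhc*, 1.8 per 10 kb. Octamers of the genes without a thresholded summit are printed on the strand where they read TGAATGAA, in capitals, to show that the letters occur in the introns of genes without a thresholded summit. The *Mhc* copies are at chr2L:16771165-16771196, chr2L:16779862-16779893 and chr2L:16780378-16780409; the *bt* copies are at chr4:725250-725281 and chr4:750310-750341.
*Mhc* octamer, first: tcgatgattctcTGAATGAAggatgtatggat
*Mhc* octamer, second: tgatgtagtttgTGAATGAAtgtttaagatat
*Mhc* octamer, last intronic TGAATGAA: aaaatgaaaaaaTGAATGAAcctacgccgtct
*bt* octamer, first: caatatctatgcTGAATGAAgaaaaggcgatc
*bt* octamer, last intronic: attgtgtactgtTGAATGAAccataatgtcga
The nearest thresholded summits to the *Mhc* copies were 10603 to 19816 bp away.

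Around the 15 summits, motifs were sought on both strands within 100 bp, a window of 201 bases. An octamer, TGAATGAA or TGAATGGA, was present at 1 of the 15 summits, 6.67%, against 5.23% of all thresholded summits. With the highest entries of replicate 1 alone, 2 summits at these genes had one. The added summit, of 243.32 in replicate 1, lay outside *Mef2*, 975 bp upstream of its Mef2-RF start. It was nearer to the start of *Pdrg1*, at 101 bp. The repeat CACACACA, which can overlap itself, was present at 4 of the 15, 26.7%, against 10.6% of all; 3 of these summits were at *Mef2* and the other was the *Tm1* promoter summit. GAGAGAG, which also overlaps itself and is known as a target of GAGA factor, was present at 3 of the 15, all at *Mef2*, against 9.27% of all. A MEF2 site lay at 1 summit, the weakest of *Zasp52*, 74 bp away, and at 6.18% of all summits. Among pooled relaxed peaks it lay at 7 of the 90 at these genes, 7.78%, against 5.96% of all 30000. CTGATAAG, a GATA factor motif, lay 29 bp from the *Zasp52* promoter summit and at 4.78% of all, and AACAGCTG, an E box, lay at none of the 15 and at 4.80% of all. With 15 summits at 4 genes, some sharing an interval, these shares are descriptions only.

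Both replicates had a peak that overlapped each of the 15 summits. Over the whole list 7122 of 7152 summits, 99.6%, were matched in both, a match being an overlap of 1 bp or more. The matched score was higher in replicate 1 than in replicate 3 at 13 of the 15 summits. The median ratio was 1.24 and the range 0.624 to 2.66. These are not 15 separate comparisons, since the summits lie at 4 genes, with 8 at *Mef2*, in the same 2 libraries. In addition, 2 pairs of *Mef2* summits share their matched peaks. Over the whole list the median ratio was 0.942 and replicate 1 was higher at 42.5% of summits. As 13 of the 15 summits lie on 2R, the same share was taken on that arm alone, where it was 43.5%. With each summit matched instead to the nearest replicate summit within 100 bp, a choice made after seeing the data, replicate 1 was higher at 12 of the 15, with a median ratio of 1.21, and at 43.2% of the 6572 summits of the list that had such a match in both replicates. The scores carry no stated scaling for depth, and the part of depth in this difference was not tested.

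**Figure D3:**
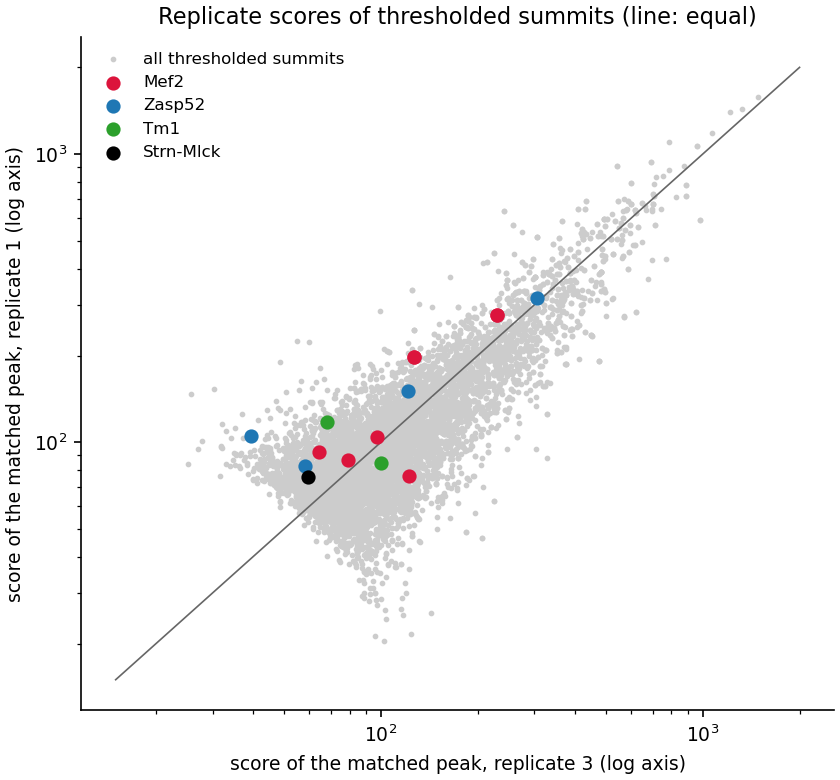
Score of the matched peak in replicate 1 against that in replicate 3 (log axes) for all thresholded summits in grey and the 15 summits at *Mef2*, *Zasp52*, *Tm1* and *Strn-Mlck* in colour; the line marks equal scores. All but 2 of the coloured summits lie above the line, and some points coincide because neighbouring *Mef2* summits share a replicate peak.

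Gene length bears on these counts, since a long gene offers more bases in which a summit can fall. Of the 10 genes, 7 are 20 kb or longer, and 4 of the 7 had a summit, against 50.8% of the 1013 genes of that length. The other 3 had none, against 31.4% of the shorter genes with a summit. Among the long genes 7.80% had as many summits as *Mef2* or more and 7.60% had a strongest summit as high. For *Zasp52* these shares were 20.4% and 5.23%, and for *Tm1* 36.1% and 35.4%. The strongest *Strn-Mlck* summit was reached by 50.6% of them, nearly all the long genes that had any.

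The 3 long genes without a summit also had the fewest relaxed peaks of the 7. The median long gene had 7 pooled relaxed peaks. *Mef2* had 26, *Zasp52* 22, *Tm1* 20 and *Strn-Mlck* 12, whereas *sls* had 6, *Mhc* 2 and *bt* 0. As many as *sls* or more were found at 55.9% of the long genes, so its count was near the middle of the class, and as many as *Mhc* or more at 80.7%. No relaxed peak was found at 111 of the 1013 long genes, 11.0%, of which *bt* is one. Of the 148 genes at least as long as *sls*, 76 had a thresholded summit, 51.4%.

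**Figure D4:**
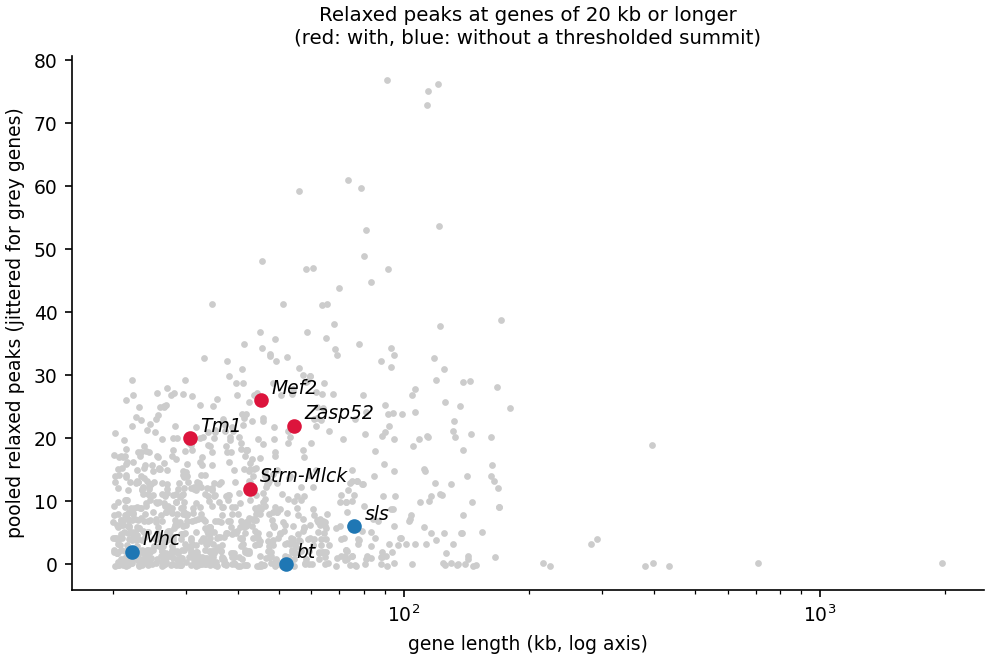
Number of pooled relaxed peaks against gene length in kb (log axis) for protein-coding genes of 20 kb or longer, in grey with a small vertical jitter; genes named here are red with and blue without a thresholded summit. *Mef2*, *Zasp52* and *Tm1* hold 20 to 26 peaks, and *sls*, *Mhc* and *bt* 0 to 6.

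The same reading was made for 58 other muscle genes in 7 groups by role. A thresholded summit was present at 17 of the 58, 29.3%, near the 32.8% of all protein-coding genes. By length, 8 of the 17 genes of 20 kb or longer had one, against 50.8% of all such genes, and 9 of the 41 shorter ones, against 31.4%. The groups hold 5 to 12 genes each, too few to set a group apart from these shares. Among the thin filament genes none of 11 had one, *Act57B* and *Act79B* among them, and 6 of the 11 had a pooled relaxed peak; 10 of the 11 are shorter than 20 kb. Among the thick filament and M line genes 1 of 6 had one, *Unc-89* (obscurin, annotated as *Obsc*), with a strongest score of 210.59 at a summit nearer to the start of *CG3860*, and *Mlc1* and *Mlc2*, the myosin light chain genes, had none.

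The next groups anchor the sarcomere or join muscle to its tendon. In the Z disc and cytoskeletal anchor group 4 of 9 had one, with strongest scores of 347.90 at *Msp300* (a nesprin), 211.09 at *Actn* (alpha-actinin), 186.16 at *cher* (filamin) and 152.95 at *cpa* (actin capping protein); *Zasp66* and *Zasp67*, the relatives of *Zasp52*, had none. In the muscle attachment group 3 of 7 had one, *Vinc* (vinculin) at 309.15, *rhea* (talin) at 299.39 and *mys* (integrin beta) at 232.73, whereas *if* and *Ilk* had none. The summit at *mys* lay nearer to the start of *fs(1)h*, and that at *cpa* nearer to the start of *shg*.

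The strongest summits among the 58 genes were at *rols* and *Argk1*. *rols*, an adaptor of myoblast fusion, reached 1010.14, rank 67, with its summit 196 bp from its start. It scored 538.68 in replicate 1 and 481.09 in replicate 3. Of the 8 fusion genes 3 had a summit, the others being *kirre* at 510.01 and *mbc* at 502.33. The *kirre* summit lay 697 bp from the start of *Syx4* and 1456 bp from that of *kirre*, which had no promoter summit. The genes *rst* and *sns* had none. *Argk1*, which encodes arginine kinase, held 8 summits up to 925.02, and *SERCA*, the calcium pump of the sarcoplasmic reticulum, 3 up to 188.12; these were 2 of the 5 genes of calcium handling and energy, with *RyR* and *Stim* among those without. Among the transcription factors 4 of 12 had one, *sd* at 205.65, *twi* at 194.52, *hth* at 122.03 and *tin* at 117.03, all below the 498.19 of *Mef2*; *nau* and *Hand* had none. The *twi* summit lay 14785 bp from a *twi* start and 1275 bp from that of *CG9896*, and the *hth* summit 93734 bp from an *hth* start, nearer to that of *Cyp12e1*.

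**Figure D5:**
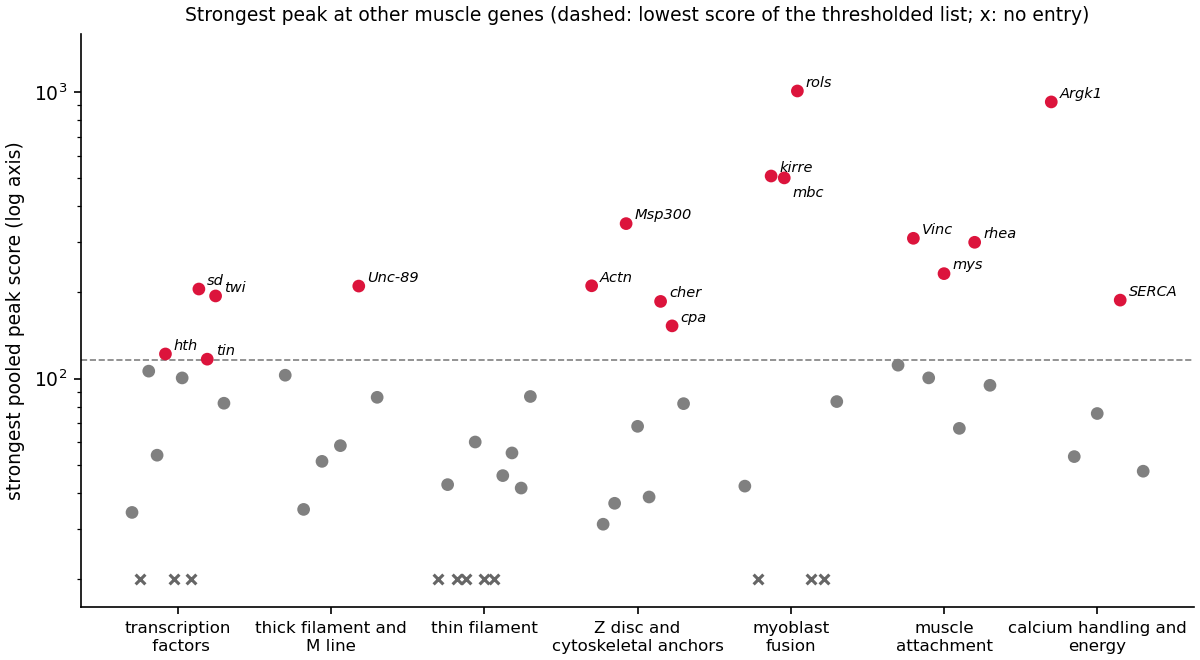
Strongest pooled relaxed peak score (log axis) at each of 58 other muscle genes, grouped by role; red points lie in the thresholded list, crosses mark genes with no entry, and the dashed line is the lowest thresholded score. No thin filament gene lies above the line, and *rols* and *Argk1* are the highest points.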

How the data were processed

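Only the dm6 peak lists were used. The authors deposited 4 of them: a relaxed list for each replicate, a relaxed list of both pooled, and a list of entries that passed a cutoff on their irreproducible discovery rate. Which aligner and peak caller made them is not given in the sources used here. Each peak score is the authors' deposited score, used to describe and rank peaks within a list. The deposited −log10 of the q-value sits at its ceiling of 4.51 for 100.0% of thresholded entries and was not used. All 7152 thresholded entries are the highest of the pooled list. No file used here gives counts of reads, so the depth behind a score is unknown. A control library named in the labels was not analysed here.

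Summits were converted to 1-based dm6 positions, and 3 that lie outside their interval were used as given. Genes came from Ensembl release 115, and sequence from RefSeq Release 6 of *D. melanogaster*. Each thresholded summit was matched to the strongest overlapping peak of each replicate, so that neighbouring summits can share a replicate peak. The steps were tested on planted summits and motifs. Named other muscle genes are up to 4 per group with the strongest summit and up to 2 without one. The members and lists were chosen with earlier results of these data known. Python 3.11.15, numpy 2.4.6, pandas 2.3.3 and matplotlib 3.10.9 were used.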

Additional observations from a re-analysis of the deposited data

How the results depend on the processing

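The count of 4 genes with a summit was 3 to 4 when the highest 7152 entries of a single replicate's list were used; replicate 3 alone lost *Strn-Mlck*. Summits at the genes were then 13 to 16, genes with a promoter summit 3 to 4, other muscle genes with a summit 17 to 19, and summits with an octamer 1 to 2. The stronger 50% of the list left 8 summits at 3 genes, again without *Strn-Mlck*. The pooled relaxed list gave 8 genes with a peak, 90 peaks and 8 genes with a promoter peak. With a distance of 5 kb from a start, 28 other muscle genes and 4 of the 10 genes had a summit. The share of all protein-coding genes at that distance was not taken, so these counts have no background beside them. Of the 15 summits, 12 were matched among the highest 7152 entries of both replicates. The other counts tried, with 1 summit per merged region, 500 bp, gene body only, other octamer windows and other match rules, lay within 1.5 times the values given. The strongest entry at *sls* ranked 9638 in replicate 1 and 17609 in replicate 3, but at different places, 8082 and 335 bp downstream of the start. At *Mhc* the strongest entries ranked 25314 in replicate 1 and 17576 in replicate 3. They lay 20 bp downstream and 239 bp upstream of the Mhc-RK start. The cause of these differences was not tested. No paired analysis was possible because there is 1 group. With 2 libraries and no counts of reads, a peak missing from a list shows only that it was not listed, not that binding was absent.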
